A study of Rattus norvegicus with 2 samples.

Results

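The genes described here are 10 genes of the intestinal crypt base and of Wnt signalling, chosen by symbol: Lgr5, Ascl2, Olfm4, Gkn3, Axin2, Smoc2, Slc12a2, Rnf43, Znrf3 and Sox9. Of these 10 genes, 9 were matched by symbol among the 32883 genes counted, and Znrf3 was not analysed here. They were read in droplet-based single-cell RNA sequencing of the epithelium of the proximal jejunum of 2 male Sprague Dawley rats, an outbred laboratory strain, which were 6 to 8 weeks old, weighed 180 to 200 g, had been fasted overnight, and by the labels carried no transgene and received no treatment. Each rat gave 1 library and both form 1 group, so the comparisons are between cell classes within the same animals. In this assay captured transcripts are tagged with unique molecular identifiers (UMIs), which keep amplified copies from being counted again, and a level is given as CPM, the UMIs of a gene per 1000000 UMIs of all genes in the summed cells of a class. A level of the same gene can be compared between classes, whereas levels of different genes also differ in how well their 3′ ends are captured.

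Stem cells at the base of the intestinal crypt are kept by Wnt signals, which stabilise beta-catenin and let it activate genes together with factors of the TCF/LEF family. Lgr5 is a receptor for R-spondins, which strengthen Wnt signals, and Rnf43 and Znrf3 are membrane E3 ligases that remove Wnt receptors from the cell surface. Axin2 is a scaffold of the complex that degrades beta-catenin and is itself a Wnt target, so it acts as feedback. Ascl2 and Sox9 are transcription factors of crypt cells, and Sox9 is also known in Paneth and tuft cells. Olfm4, Smoc2 and Gkn3 encode secreted proteins that mark crypt base cells in the mouse, and Slc12a2 encodes the basolateral sodium-potassium-chloride cotransporter NKCC1, which loads crypt cells with chloride for secretion. Progeny of the stem cells divide in the crypt and become absorptive enterocytes or secretory cells, among them goblet, Paneth, enteroendocrine (EEC) and tuft cells and, in the rat, CFTR high expresser cells (CHEs), which carry high levels of the chloride channel Cftr.

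Promoter sequences are shown for the 4 genes with a RefSeq promoter entry that were higher in crypt-like than in enterocyte-like cells in both rats and that are not on chromosome 18, because TCF/LEF factors, which act at the end of the Wnt pathway, recognise a short core of letters. Each runs 5′ to 3′ from 250 bases before to 50 bases after the gene start in build GRCr8, which is not the build behind the counts, and capitals mark CTTTGA or its reverse complement TCAAAG.
Axin2, chr10:94398535-94398834, strand +: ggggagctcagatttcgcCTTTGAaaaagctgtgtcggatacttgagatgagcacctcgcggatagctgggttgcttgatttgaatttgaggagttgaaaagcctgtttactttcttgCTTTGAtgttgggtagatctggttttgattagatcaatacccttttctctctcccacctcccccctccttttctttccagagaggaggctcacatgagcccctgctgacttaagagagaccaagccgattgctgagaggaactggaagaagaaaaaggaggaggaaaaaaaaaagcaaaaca
Ascl2, chr1:207580807-207581106, strand -: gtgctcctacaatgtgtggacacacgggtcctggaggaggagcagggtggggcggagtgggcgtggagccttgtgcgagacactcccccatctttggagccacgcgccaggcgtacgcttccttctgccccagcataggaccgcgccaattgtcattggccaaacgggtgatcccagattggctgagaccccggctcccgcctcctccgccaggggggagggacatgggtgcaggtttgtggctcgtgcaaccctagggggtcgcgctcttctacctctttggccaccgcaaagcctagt
Olfm4, chr15:61815981-61816280, strand +: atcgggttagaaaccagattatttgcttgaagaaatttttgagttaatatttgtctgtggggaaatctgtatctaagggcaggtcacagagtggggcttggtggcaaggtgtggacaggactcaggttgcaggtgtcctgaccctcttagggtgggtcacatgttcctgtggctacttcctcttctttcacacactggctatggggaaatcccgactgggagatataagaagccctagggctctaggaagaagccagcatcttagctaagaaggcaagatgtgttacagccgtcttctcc
Gkn3, chr4:121390670-121390969, strand -: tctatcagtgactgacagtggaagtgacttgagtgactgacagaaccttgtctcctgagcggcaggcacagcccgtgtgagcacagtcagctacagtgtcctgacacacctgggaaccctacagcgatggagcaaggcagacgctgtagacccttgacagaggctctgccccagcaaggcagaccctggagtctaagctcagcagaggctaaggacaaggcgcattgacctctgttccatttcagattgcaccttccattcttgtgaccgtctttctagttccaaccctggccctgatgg
The table of promoters held 6 of the 10 genes, and only the Axin2 window held the core, with 2 matches on the gene strand that begin 232 and 132 bases before the gene start. The windows of Ascl2, Olfm4, Gkn3, Slc12a2 and Rnf43 held none. Over all 33469 promoters of this length, 16.09% held the core at least once and 1.85% held it 2 or more times. A match describes letters only.

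Cells were kept with more than 5000 UMIs, more than 200 and fewer than 5800 genes and at most 40% mitochondrial UMIs, which left 5988 cells of rat 1 and 2230 cells of rat 2. They were clustered on genes that exclude all members and all listed Wnt pathway genes, and the clusters were named from other markers, so that the members' levels could be compared between classes. Rat 1 gave 151 crypt-like, 973 cycling, 4025 enterocyte-like, 45 goblet-like, 16 tuft-like and 9 CHE-like cells, and rat 2 gave 6, 34, 1121, 101, 130 and 75, in the same order. The crypt side is thus mostly rat 1 and the tuft and CHE side mostly rat 2, and the classes with 6 and 9 cells limit every comparison that uses them. The markers that follow are not members but belong to the lists that named the clusters, so they describe the classes and do not test the names. The tuft gene Dclk1 was found in 16 of 16 and 128 of 130 tuft-like cells, Cftr in all 9 and all 75 CHE-like cells, and Mki67 in 792 of 973 and 30 of 34 cycling cells. The 14 crypt markers summed to 672 and 843 CPM in crypt-like cells, with Igfbp4 and Nrn1 at 0 in both rats, against 214 and 124 CPM in enterocyte-like cells. The same list summed to 389 and 653 CPM in tuft-like, 341 and 625 CPM in cycling goblet-lineage and 351 and 413 CPM in goblet-like cells. Within the enterocyte-like class of rat 1 it reached 400.2 CPM in a cluster, above the 385 CPM of the highest cycling cluster, so the list alone does not separate the classes. Between the libraries, 28 barcodes were shared, of which 4 were retained in both.

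Markers of other cell types moved with some classes, and their part in the results was not tested. In crypt-like cells the leukocyte list summed to 576 and 540 CPM in rats 1 and 2, against 27.4 and 32.1 CPM in enterocyte-like cells. Nearly all of it was Cd3g, at 550.5 and 506 CPM, whereas the defining leukocyte gene Ptprc was at 1.01 and 11.2 CPM and Csf1r was at 0 in both rats. Goblet markers summed to 793 CPM in cycling cells of rat 1 and to 20611 CPM in those of rat 2. In crypt-like cells they summed to 1798 and 7016 CPM, against 421 and 274 CPM in enterocyte-like cells. The stromal list was at or below 1.30 CPM in crypt-like and cycling cells of both rats.

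Each member was then followed through the classes, beginning with the receptor and the ligase of the Wnt pathway. Lgr5, the R-spondin receptor, was at 17.2 and 11.2 CPM in crypt-like cells of rats 1 and 2, from 34 UMIs and 1 UMI. It was at 1.65 and 1.30 CPM in cycling cells and at 0.130 and 0 CPM in enterocyte-like cells. Outside the crypt, Lgr5 was read in tuft-like cells of rat 2 at 11.1 CPM, from 12 UMIs, and not in the 16 tuft-like cells of rat 1, where 3 counts would be 16.9 CPM. The tuft-like to crypt-like ratio in rat 2 was 0.990, but its exact 95% interval ran from 0.146 to 42.3. Rnf43 was at 6.06 CPM in crypt-like cells of rat 1 from 12 UMIs and at 0 in rat 2, and lay between 0.833 and 1.59 CPM in cycling and enterocyte-like cells of both rats. Lgr5 and Rnf43 had too few UMIs to pass the filter on low counts, so ratios of their UMIs with exact 95% intervals are given. The crypt-like to enterocyte-like ratio in rat 1 was 132 for Lgr5 (57.8 to 354) and 7.27 for Rnf43 (3.50 to 14.0), where the intervals cover counting error only. In the fit without that filter, Lgr5 was higher than in enterocyte-like cells by 7.07 ± 1.09 on the log2 scale in crypt-like cells (SE, edgeR, adjusted p = 5.4e-09), by 3.79 ± 1.00 in cycling cells (adjusted p = 0.00145) and by 6.08 ± 1.10 in tuft-like cells (adjusted p = 1.18e-06). These Lgr5 calls rest mostly on 1 rat, with 1 UMI in crypt-like and 1 in cycling cells of rat 2 and none in tuft-like cells of rat 1. Their p-values therefore say little about the spread between rats. Rnf43 differed by 1.97 ± 1.03 in crypt-like cells (adjusted p = 0.189) and was called in no comparison of that fit.

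Axin2, the feedback scaffold, was at 113 and 124 CPM in crypt-like cells, at 40.8 and 40.4 CPM in cycling cells and at 7.01 and 9.79 CPM in enterocyte-like cells. Among the 7 members tested between crypt-like and enterocyte-like cells, Axin2 had the smallest log2 fold change, 3.09 ± 0.84 (SE, edgeR, adjusted p = 0.0129). It was read in each of the 7 enterocyte clusters, where it ranged from 4.30 to 11.1 CPM in rat 1 and from 2.78 to 14.0 CPM in rat 2. CHE-like cells had 0 and 5.74 CPM and goblet-like cells 2.79 and 1.49 CPM of Axin2.

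The transcription factor Ascl2 was at 103 and 101 CPM in crypt-like cells and at 16.7 and 18.2 CPM in cycling cells. Enterocyte-like cells held 10 Ascl2 UMIs in rat 1 (0.185 CPM) and none in rat 2. Tuft-like cells had the next highest Ascl2 level after crypt-like cells, at 67.7 and 18.6 CPM in rats 1 and 2, beside 16.7 and 18.2 CPM in cycling cells. No Ascl2 UMI was found in CHE-like or EEC-like cells of either rat. In the 21 and 11 EEC-like cells 3 counts would be 16.7 and 19.2 CPM, and in CHE-like cells 30.4 and 2.87 CPM. Only the floor of CHE-like cells in rat 2 lies clearly below the Ascl2 level of cycling cells.

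Sox9, the second transcription factor, had its highest level in tuft-like cells, at 310 and 629 CPM, followed by crypt-like cells at 182 and 225 CPM. It was at 67.5 and 96.3 CPM in cycling cells, at 58.1 and 23.5 CPM in goblet/Paneth-like cells, at 30.4 and 7.66 CPM in CHE-like cells and at 3.55 and 0.876 CPM in enterocyte-like cells. No Sox9 UMI was found in goblet-like cells of either rat. The tuft-like and crypt-like values did not overlap between rats, but their difference was 1.26 ± 0.63 on the log2 scale and did not pass the test (edgeR, adjusted p = 0.289).

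Among the secreted proteins, Olfm4 was at 2968 and 3350 CPM in crypt-like cells and at 431 and 171 CPM in cycling cells. In enterocyte-like cells it was at 7.29 and 0.228 CPM. The level of rat 1 was spread over all 7 enterocyte clusters, between 4.99 and 10.5 CPM, while in rat 2 it lay between 0 and 0.695 CPM. Smoc2, a matrix protein, was at 185 and 225 CPM in crypt-like cells, at 98.9 and 105 CPM in cycling cells and at 5.52 and 1.45 CPM in enterocyte-like cells. Within the enterocyte-like class of rat 1, the cluster with the lowest enterocyte marker level had 20.9 CPM of Smoc2, 48.6 CPM of Slc12a2 and 15.0 CPM of Sox9, and the other 6 clusters had at most 8.31, 6.84 and 4.66 CPM. Gkn3, a gastrokine, was at only 7.57 and 11.2 CPM in crypt-like cells, from 15 UMIs and 1 UMI, and reached its highest level in CHE-like cells, at 40.5 and 69.9 CPM. In crypt-like cells of rat 2, 3 counts would be 33.7 CPM.

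Slc12a2, the cotransporter, was at 743 and 596 CPM in crypt-like cells and at 289 and 309 CPM in cycling cells. Cycling goblet-lineage cells had 390 and 304 CPM. Goblet/Paneth-like cells had 348 and 52.8 CPM, tuft-like cells 254 and 39.0 CPM, and CHE-like cells 10.1 and 0 CPM. The values of the rats lay far apart in the goblet/Paneth-like and tuft-like classes and close together in the cycling class.

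**Figure D1:**
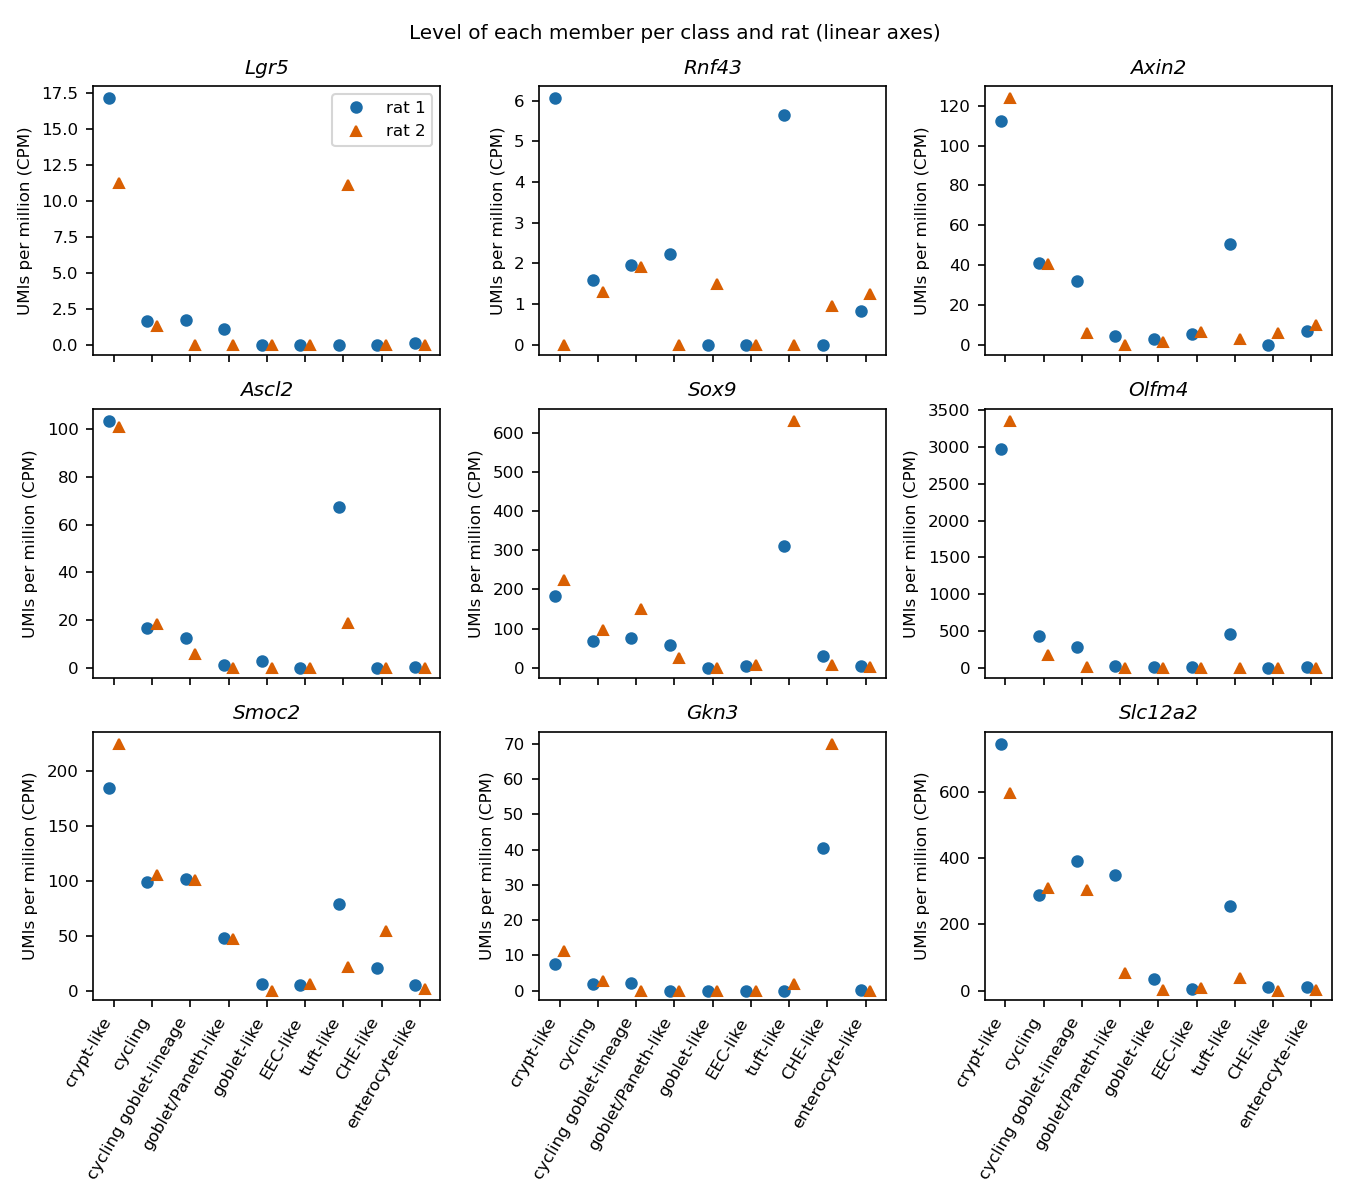
Level of each of the 9 genes in CPM (linear y axes, each from about 0) in 9 cell classes, with circles for rat 1 and triangles for rat 2. Olfm4 reaches 2968 and 3350 CPM in crypt-like cells, Sox9 310 and 629 CPM in tuft-like cells, and Gkn3 40.5 and 69.9 CPM in CHE-like cells.

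The first comparison asked which members differ between cells of the crypt base and absorptive cells. All 7 members that passed the filter were higher in crypt-like than in enterocyte-like cells, and each was higher within each rat. Over all 8622 genes tested, 15.7% were called higher. The median log2 fold change of the 7 members was 5.84, and that of all genes tested was -0.01. Ascl2 was higher by 9.03 ± 1.03 on the log2 scale (edgeR quasi-likelihood test, adjusted p = 0.00027) and Sox9 by 5.84 ± 0.75 (adjusted p = 0.00027). Olfm4 was higher by 9.10 ± 2.33 (adjusted p = 0.00935), with 8.20 in rat 1 and 11.7 in rat 2. Slc12a2 was higher by 6.20 ± 1.34 (adjusted p = 0.0036) and Smoc2 by 5.21 ± 0.78 (adjusted p = 0.000432). Gkn3 was higher by 5.08 ± 1.08 (adjusted p = 0.00452), from 15 UMIs in crypt-like cells of rat 1 and 1 UMI in those of rat 2. Its direction within rat 2 thus rests on 1 UMI.

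Dividing cells showed the same direction at smaller sizes. In cycling cells, 6 of the 7 tested members were called higher than in enterocyte-like cells, against 16.6% of all genes tested (25.7% with the rat as a block). Ascl2 was higher by 6.50 ± 0.94 on the log2 scale (edgeR, adjusted p = 0.000582), Olfm4 by 5.82 ± 2.02 (adjusted p = 0.0401), Slc12a2 by 5.06 ± 1.27 (adjusted p = 0.00773), Sox9 by 4.58 ± 0.70 (adjusted p = 0.000624), Smoc2 by 4.28 ± 0.74 (adjusted p = 0.00095) and Gkn3 by 3.08 ± 0.98 (adjusted p = 0.0314). Axin2 had a log2 fold change of 1.60 ± 0.79 and was not called (adjusted p = 0.135). It was called without the filter on low counts (adjusted p = 0.0202), when libraries were merged without integration (0.0482) and with cells of few epithelial transcripts kept (0.0415). The calls of Olfm4 and Gkn3 were lost with DESeq2 (adjusted p = 0.0831 and 0.0632) and at a limit of 20% mitochondrial UMIs (adjusted p = 0.0602 and 0.121), and that of Olfm4 also at a resolution of 1.0 (0.0575).

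**Figure D2:**
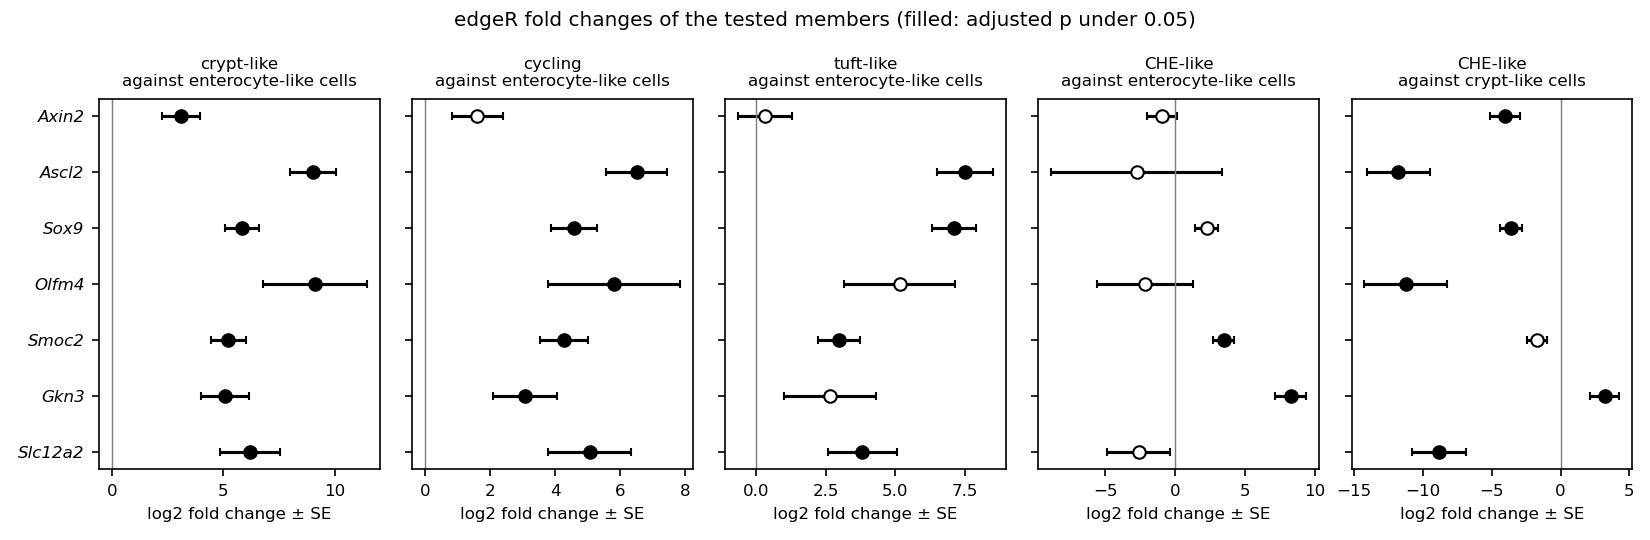
Log2 fold changes of the 7 tested members (x axis, points) with their standard errors (bars) in 5 comparisons, from edgeR on sums per rat and class with 2 rats, where filled points passed an adjusted p of 0.05. In CHE-like cells against enterocyte-like cells only Gkn3 and Smoc2 are filled, and against crypt-like cells Gkn3 lies to the right of 0 while the other 6 lie to the left.

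Between crypt-like and cycling cells every tested member was higher in crypt-like cells in both rats, but none passed the test, and 0% of all 8622 genes were called. Crypt-like cells also held markers of division: the cycling list summed to 764 and 731 CPM in them and to 1586 and 1708 CPM in cycling cells. In rat 1 a cycling cluster of 275 cells had 709 CPM of that list, so this does not set non-dividing against dividing cells. At an unadjusted p under 0.05 edgeR gave 188 genes, and DESeq2 called 2 genes after adjustment, neither of them a member, namely Stfa3 and Wfdc1, which are named only because they were called and were lower in crypt-like cells. Without the filter on low counts Olfm4 was called (adjusted p = 0.00646). The log2 differences were 3.28 ± 1.80 for Olfm4, 2.53 ± 0.79 for Ascl2, 2.00 ± 1.09 for Gkn3, 1.49 ± 0.81 for Axin2, 1.26 ± 0.63 for Sox9, 1.14 ± 1.09 for Slc12a2 and 0.93 ± 0.67 for Smoc2. The counts alone gave an Olfm4 ratio of 6.88 in rat 1 (6.64 to 7.13) and 19.6 in rat 2 (15.9 to 24.3), intervals that do not include the spread between animals.

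The cycling class was not uniform. Its 5 clusters, formed without the members, differed in crypt markers from 130 to 385 CPM in rat 1, and the members differed along with them. In the 188 cells of the cluster with the highest crypt marker level, Olfm4 was at 1138 CPM and Ascl2 at 52.2 CPM. In the 166 and 168 cells of the clusters with the lowest levels, Olfm4 was at 19.1 and 5.34 CPM and Ascl2 at 0.708 and 0 CPM. Smoc2 was at 170 CPM in the first and at 42.1 and 58.1 CPM in the last clusters, and Slc12a2 at 498, 103 and 160 CPM. Axin2 was at 77.9 CPM in the first of these clusters and at 13.1 and 20.4 CPM in the last ones. In rat 2 the clusters held 4 to 11 cells, and Olfm4 was at 167 CPM in the first, at 0 in the last ones and at its highest, 629 CPM, in another. These are levels within 1 class of the same animals and carry no test.

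**Figure D3:**
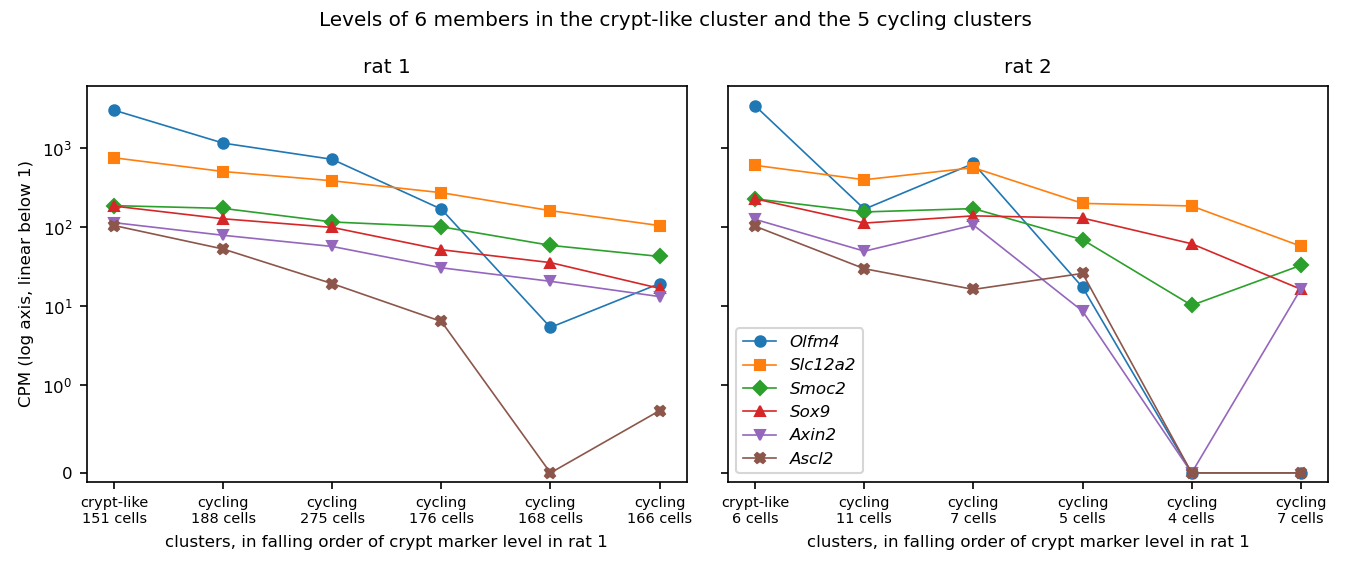
CPM of 6 members (y axis, logarithmic above 1 and linear below) in the crypt-like cluster and the 5 cycling clusters, ordered by the summed level of the crypt markers in rat 1, with the number of cells under each cluster. In rat 1 Olfm4 runs from 2968 CPM in the crypt-like cluster to 5.34 CPM in a cycling cluster, while Smoc2 is at 42.1 CPM or more.

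Shares of cells with a UMI were read after each cell had been thinned to 5000 UMIs, because depth differed between rats and classes. The median was 24591 UMIs in enterocyte-like cells of rat 2 against 11987 in rat 1, and 7813.5 UMIs in tuft-like cells of rat 2 against 8598.5 in rat 1. In the 151 crypt-like cells of rat 1, an Olfm4 UMI was found in 97.4% of cells (exact 95% interval 93.4 to 99.3), a Slc12a2 UMI in 95.4%, Smoc2 in 54.3%, Sox9 in 53.6%, Axin2 in 41.7% and Ascl2 in 40.4%. Lgr5 was found in 9.93% of these cells (5.67 to 15.9) and in 19.2% of them without thinning, and Gkn3 and Rnf43 in 1.99% each. Of the 6 crypt-like cells of rat 2, 4 held an Olfm4 UMI, 5 a Smoc2 UMI and 5 a Sox9 UMI. Enterocyte-like cells served as the reference class. Their shares were 3.98% and 0.0892% for Olfm4 and 4.60% and 0.357% for Slc12a2 in rats 1 and 2. For Smoc2 they were 2.71% and 0.714%, and for Lgr5 0.0994% and 0%. Axin2 was found in 3.18% and 4.01% and Rnf43 in 0.373% and 0.624% of enterocyte-like cells. Free RNA in the droplets can give such UMIs, but its part was not tested. In rat 1 Slc12a2 and Smoc2 were highest in 1 of the enterocyte clusters, at 48.6 and 20.9 CPM. The shares of enterocyte-like cells are therefore a reference level and not a measure of free RNA. Unlike the shares of Olfm4, Slc12a2, Smoc2 and Lgr5, those of Axin2 and Rnf43 were not lower in rat 2. Whether enterocyte-like cells express any of these members was not tested.

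**Figure D4:**
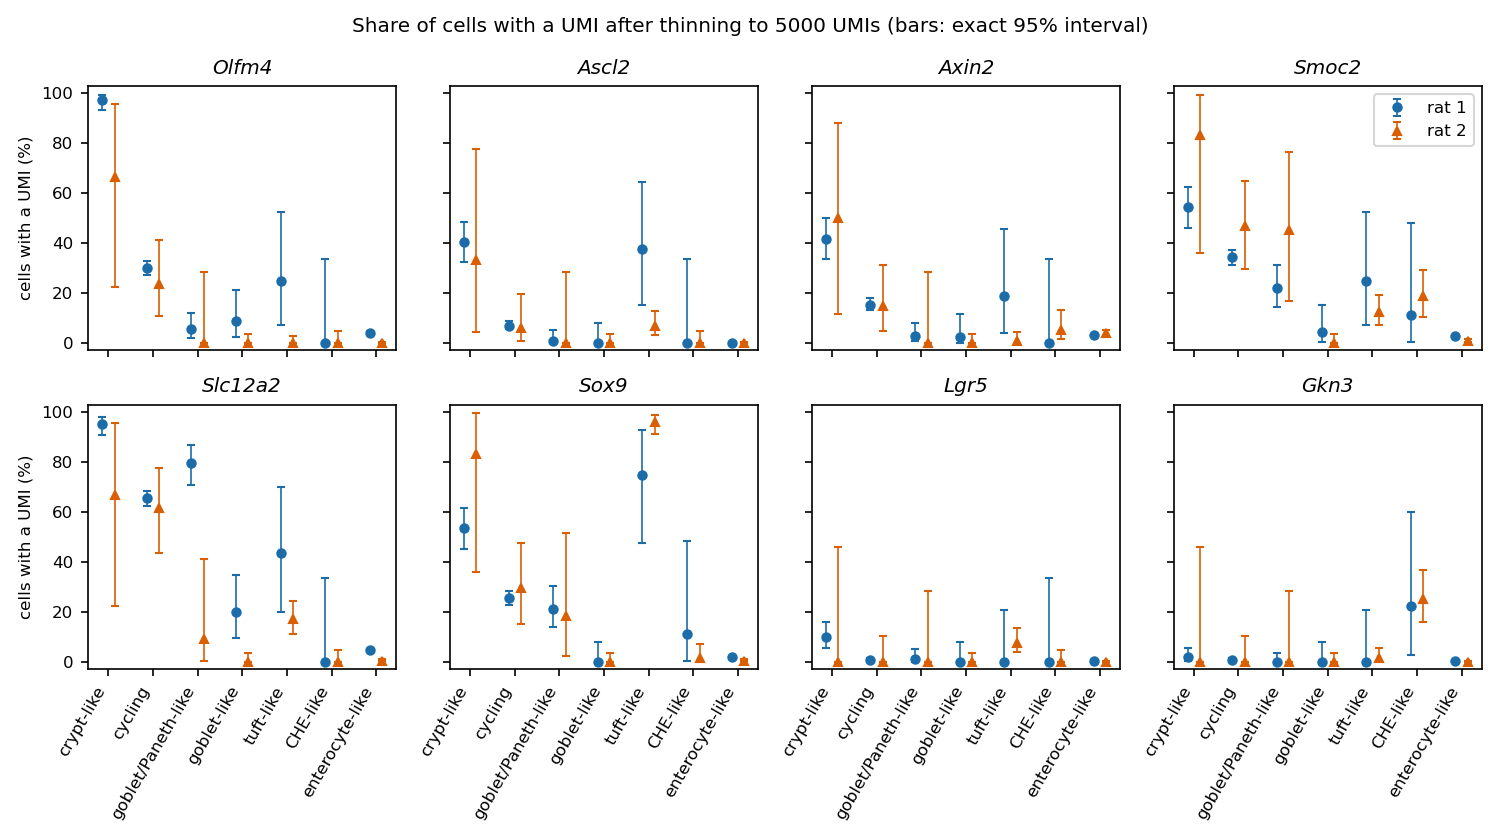
Percent of cells with at least 1 UMI (y axis) of 8 members in 7 classes after thinning to 5000 UMIs, with circles for rat 1, triangles for rat 2 and exact 95% intervals that cover counting error only. Olfm4 is in 97.4% of crypt-like cells of rat 1, and Gkn3 is in 22.2% and 25.3% of CHE-like cells.

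Crypt-like cells carried several members at once. After thinning, a crypt-like cell of rat 1 held UMIs of 3.97 members on average and of 6 at most, and 89.4% of the cells held 3 or more. In rat 2 the mean was 3.83 members over the 6 cells. Cycling cells held 1.79 and 1.85 members on average, with none in 20.1% and 17.6% of cells, whereas 85.2% and 93.9% of enterocyte-like cells held none. Tuft-like cells held 2.25 and 1.42 members, CHE-like cells 0.444 and 0.507, and goblet-like cells 0.356 and 0.00990.

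Members also occurred together within the cycling class. Of the 36 pairs of members, 31 were seen in the same cycling cell of rat 1 and 30 in the same crypt-like cell. In the 15 pairs with at least 20 cells of each gene, the second gene was more frequent among cycling cells with the first gene in all 15. Olfm4 was found in 86.8% of the 68 cycling cells with Ascl2 and in 25.6% of those without it. Axin2 was found in 36.8% of cells with Ascl2 and in 13.8% of those without it. The weakest contrast was Sox9 by Smoc2, with 27.5% against 24.6%. In crypt-like cells, where Olfm4 and Slc12a2 are in nearly every cell, the second gene was more frequent with the first in 11 of 15 pairs, and Ascl2 and Lgr5 were found together in 5 cells, with Lgr5 in 8.20% of cells with Ascl2 and in 11.1% of those without it. Without thinning, the 29 Lgr5 cells of the crypt-like class of rat 1 all held Olfm4 and Slc12a2, 24 held Smoc2, 23 Sox9, 20 Axin2 and 18 Ascl2. The counts are sparse and the cells of 1 rat are not replicates, so no test was made, and the 34 cycling cells of rat 2 had no pair with 20 cells of each gene.

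**Figure D5:**
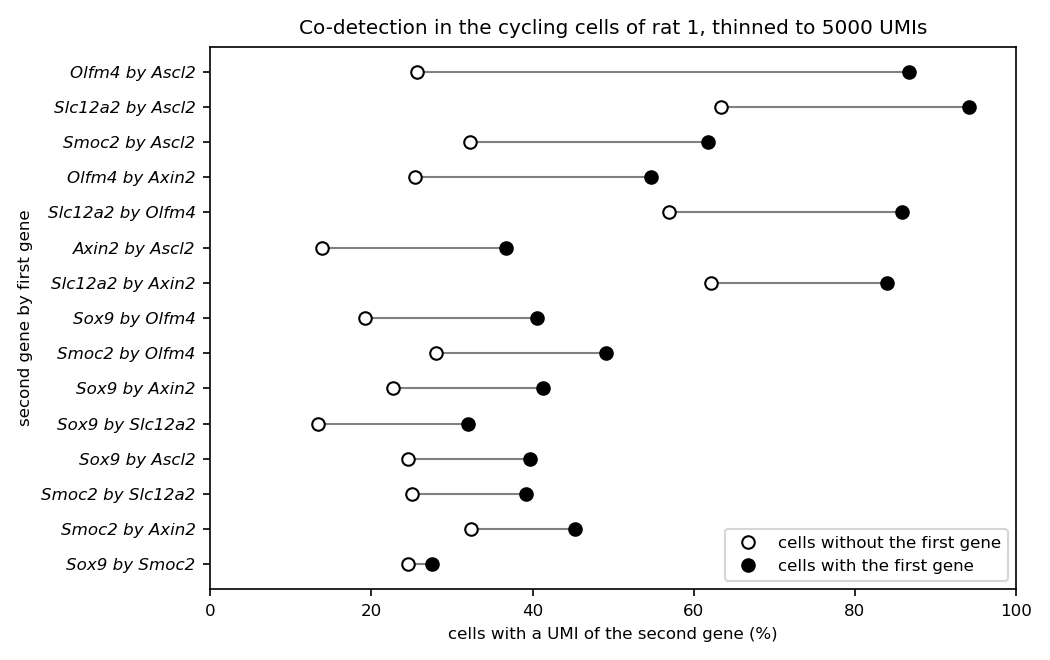
Percent of the 973 cycling cells of rat 1 with a UMI of the second gene (x axis) among cells with the first gene (filled) and without it (open), for the 15 pairs with at least 20 cells of each gene, after thinning to 5000 UMIs. The filled point lies to the right in all 15 pairs, most for Olfm4 by Ascl2 at 86.8% against 25.6%.

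On the goblet side, no member was called between goblet-like and enterocyte-like cells, while 17.6% of all genes were called (edgeR, 27.8% with the rat as a block). Olfm4 was at 11.2 and 0 CPM in goblet-like cells, Slc12a2 at 33.5 and 0.747 CPM and Smoc2 at 5.58 and 0 CPM. Sox9, Gkn3 and Lgr5 had no UMI in either rat, where 3 counts would be 8.37 and 2.24 CPM. These floors lie above the Sox9 levels in enterocyte-like cells of the same rats, 3.55 and 0.876 CPM, so no lower Sox9 level could be detected within a rat at this depth, and Sox9 did not pass the test (adjusted p = 0.167). Sox9 was called lower at a limit of 20% mitochondrial UMIs (adjusted p = 0.0389). Ascl2 was at 2.79 and 0 CPM, from 1 UMI, and was not called (adjusted p = 0.434), and Axin2 differed by -1.83 ± 1.21 on the log2 scale (adjusted p = 0.345). The goblet/Paneth-like cluster, with 104 and 11 cells, held goblet genes together with the Paneth gene Lyz2 at 862 and 534 CPM. Its Paneth list summed to 9330 and 1168 CPM, with Defa24, Mmp7 and Defa5 at 0 in rat 2. The same list summed to 5578 and 9343 CPM in cycling goblet-lineage cells, so it does not set this class apart. In a comparison chosen after these levels had been seen, Sox9 was higher than in goblet-like cells (adjusted p = 0.0305), at least 6.94-fold in rat 1 and at least 10.5-fold in rat 2, and Smoc2 was higher by 4.37 ± 1.11 on the log2 scale (adjusted p = 0.0476), against 1.23% of all genes called higher (7.31% with the rat as a block). In goblet/Paneth-like cells of rat 2, Sox9 had 4 UMIs in 2 of the 11 cells, and 1 cell held 3 of them. The Sox9 bound of rat 2 is therefore weak. Smoc2 had 8 UMIs and Slc12a2 had 9 UMIs in these 11 cells. The Smoc2 call was lost at a limit of 20% mitochondrial UMIs (adjusted p = 0.0595). Slc12a2 was higher by 3.47 ± 1.32 and was not called (adjusted p = 0.135), whereas it was called with the rat as a block (adjusted p = 0.011), without the filter on low counts (0.000458) and when merged without integration (0.00616). Olfm4 (adjusted p = 0.734) and Axin2 (0.981) were not called, Ascl2 had at most 1 UMI in each class and rat, and Gkn3 had none.

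Cycling goblet-lineage cells, 195 in rat 1 and 28 in rat 2, were compared with the cycling class. The cycling list summed to 1124 and 237 CPM in them, against 1586 and 1708 CPM in cycling cells. Those of rat 2 are therefore not shown to be dividing. In cycling goblet-lineage cells against cycling cells, none of the 7 tested members and 0% of all genes were called by edgeR, which gave 379 genes at an unadjusted p under 0.05, while DESeq2 called 41 genes and the fit with the rat as a block 109, none of them a member. Smoc2 was at 102 and 101 CPM and differed by 0.03 ± 0.66 on the log2 scale, Slc12a2 by 0.26 ± 1.07 and Sox9 by 0.47 ± 0.62. The differences were -0.74 ± 0.79 for Ascl2, -0.89 ± 0.80 for Axin2 and -0.21 ± 1.11 for Gkn3. Olfm4 was at 279 CPM in rat 1 and at 7.65 CPM in rat 2, and did not pass the test. The erythroid list summed to 4619.9 CPM in the cycling goblet-lineage cells of rat 2 and to 88.9 CPM in those of rat 1, and its part was not tested.

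Tuft-like cells, which sense luminal signals and signal to immune cells, carried several of the members. Of the 7 tested members, 4 were called higher in tuft-like than in enterocyte-like cells, against 9.08% of all genes (15.2% with the rat as a block). Ascl2 was higher by 7.51 ± 1.01 on the log2 scale (edgeR, adjusted p = 0.000328) and Sox9 by 7.11 ± 0.79 (adjusted p = 0.000155). Slc12a2 was higher by 3.82 ± 1.23 (adjusted p = 0.0403) and Smoc2 by 2.96 ± 0.76 (adjusted p = 0.0124). Axin2 differed by 0.31 ± 0.97 on that scale (adjusted p = 0.871), with 50.7 and 2.78 CPM in tuft-like cells, and Gkn3, from 2 UMIs, was not called (adjusted p = 0.3). The calls of Slc12a2 and Smoc2 were lost when the rats were merged without integration (edgeR, adjusted p = 0.221 and 0.189). They were also lost when cells with few epithelial transcripts were kept (0.0678 and 0.0503), and that of Slc12a2 at a limit of 20% mitochondrial UMIs (0.134). Sox9 was found in 75.0% of the 16 tuft-like cells of rat 1 and in 96.2% of the 130 of rat 2 after thinning. Ascl2 was found in 37.5% and 6.92% of them and Lgr5 in 0% and 7.69%, where 0 of 16 cells allows a share of up to 18.8%. In rat 2, 11 tuft-like cells held Lgr5 without thinning, of which 2 also held Ascl2 and none held Olfm4.

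Olfm4 separated the rats in this class. It was at 462 CPM in rat 1, where 4 of 16 tuft-like cells held all 82 UMIs and 1 of them held 53.7% of the UMIs, and at 0 in the 130 cells of rat 2. It was not called against enterocyte-like cells (log2 fold change 5.15 ± 1.98, adjusted p = 0.0844), but was called with the rat as a block (adjusted p = 0.00397) and without the filter on low counts (2.76e-10). Its direction was not stable either, with a log2 fold change just below 0 when cells with few epithelial transcripts were kept, and lower values in tuft-like cells when the rats were merged without integration or when cells with a Mki67 or Top2a UMI were left out. Dividing-cell markers moved with this: Mki67 was at 226 CPM and Top2a at 95.8 CPM in tuft-like cells of rat 1, and at 77.0 and 5.57 CPM in those of rat 2, against 28.3 and 2.41 CPM in enterocyte-like cells of rat 1. With the 11 tuft-like cells of rat 1 and the 47 of rat 2 that held a Mki67 or Top2a UMI left out, Sox9 and Ascl2 were still called and Smoc2 and Slc12a2 were not (adjusted p = 0.0958 and 0.333). The leukocyte list summed to 321 and 436 CPM and the enterocyte list to 9539 and 32805 CPM, and in rat 2 the erythroid list to 11352 CPM, in tuft-like cells, with Ptprc at 16.9 and 19.5 CPM and Csf1r at 0, and their part was not tested. Against crypt-like cells, a comparison chosen after the levels had been seen, no member was called, and 2.99% of all genes were. With the rat as a block 4 members were lower in tuft-like cells, against 3.97% of all genes, namely Olfm4 (adjusted p = 0.00466), Slc12a2 (0.0238), Smoc2 (0.0254) and Axin2 (0.0289), while Ascl2 (0.146) and Sox9 (0.155) were not called. Gkn3 was not called in the fit without the block (adjusted p = 0.379).

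In CHE-like cells, Gkn3 and Smoc2 were the members called. Against enterocyte-like cells, 2 of the 7 tested members were called, both higher, against 3.94% of all genes (6.68% with the rat as a block). Gkn3 was higher by 8.29 ± 1.10 on the log2 scale (edgeR, adjusted p = 0.000611), with 4 UMIs in the 9 cells of rat 1 and 73 UMIs in the 75 cells of rat 2. Smoc2 was higher by 3.49 ± 0.75 (adjusted p = 0.00954), with 20.3 and 54.6 CPM in CHE-like cells. Without thinning, a Gkn3 UMI was found in 33.3% of the CHE-like cells of rat 1 and in 48.0% of those of rat 2, and a Smoc2 UMI in 22.2% and 50.7%, against 0.248% and 0% of enterocyte-like cells for Gkn3. The Smoc2 shares in enterocyte-like cells were 6.53% and 3.30%. In the 75 cells of rat 2, 18 held both, out of 36 with Gkn3, and Smoc2 was found in 51.3% of the cells without Gkn3. Sox9 had a log2 fold change of 2.26 ± 0.82 and was not called (adjusted p = 0.112), nor was Axin2 (-0.96 ± 1.09, adjusted p = 0.708). Other markers differed too: the erythroid list summed to 60.8 and 1969 CPM in CHE-like cells of rats 1 and 2, against 274 and 90.7 CPM in enterocyte-like cells, and the enterocyte list to 21945 and 6812 CPM, and their part was not tested.

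Ascl2, Lgr5, Olfm4, Rnf43 and Slc12a2 were at or near 0 in CHE-like cells. Ascl2 and Lgr5 had no UMI in either rat, Olfm4 had 1, Rnf43 1 and Slc12a2 1, out of 98657 UMIs in rat 1 and 1044877 UMIs in rat 2. Against crypt-like cells, a comparison chosen after these levels had been seen, 5 members were called lower and Gkn3 was called higher, where 10.9% and 10.8% of all genes were called in those directions. Ascl2 was lower (edgeR, adjusted p = 0.00613), at least 3.40-fold in rat 1 and at least 35.2-fold in rat 2 with a floor of 3 counts per library, and Slc12a2 (adjusted p = 0.00924), Sox9 (0.0108), Olfm4 (0.0194) and Axin2 (0.0205) were lower too. Gkn3 was higher than in crypt-like cells by 3.21 ± 1.05 (adjusted p = 0.045), a call that was lost with DESeq2 (adjusted p = 0.122) and with cells of few epithelial transcripts kept (0.0516). The crypt-like cells of rat 2 held 1 Gkn3 UMI. Lgr5 had no UMI in CHE-like cells and was called lower than in crypt-like cells in the fit without the filter on low counts (edgeR, adjusted p = 0.0143). In rat 1, 3 counts in CHE-like cells would be 30.4 CPM, above the crypt-like level of 17.2 CPM. In rat 2 they would be 2.87 CPM, below the crypt-like 11.2 CPM, but that level is 1 UMI in 6 cells. Neither rat taken alone thus gives a firm limit. Rnf43 was not called in the fit without that filter (adjusted p = 0.51). Smoc2 differed by -1.73 ± 0.73 and was not called (adjusted p = 0.0956), whereas it was called lower without the filter on low counts (0.0458) and when merged without integration (0.042).

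A direct comparison of both rare classes called 3 of the 7 tested members, against 5.64% of all genes (13.0% with the rat as a block), or 2.39% higher and 3.25% lower in tuft-like cells. Ascl2 was higher in tuft-like than in CHE-like cells (edgeR, adjusted p = 0.0371), at least 2.22-fold in rat 1 and at least 6.46-fold in rat 2, and Sox9 was higher by 4.85 ± 0.82 on the log2 scale (adjusted p = 0.00518), while Gkn3 was lower, with a log2 fold change of -5.64 ± 1.27 (adjusted p = 0.0236). Slc12a2 had a log2 fold change of 6.44 ± 2.04 and was not called (adjusted p = 0.08), whereas it was called with the rat as a block (adjusted p = 0.00846), with DESeq2 (0.00845) and without the filter on low counts (2.74e-06). Axin2 differed by 1.27 ± 1.25 (adjusted p = 0.603) and Olfm4, with 1 UMI in CHE-like cells, was not called (adjusted p = 0.174) except without the filter on low counts. Smoc2 differed by -0.52 ± 0.77 (adjusted p = 0.751), with 78.9 and 21.3 CPM in tuft-like and 20.3 and 54.6 CPM in CHE-like cells, so that the rats went in opposite directions. The Ascl2 call rests on few UMIs and was lost at a limit of 20% mitochondrial UMIs (adjusted p = 0.101), with no upper limit on genes (0.0541), at a resolution of 1.0 (0.0578) and with cells of few epithelial transcripts kept (0.088).

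Of 104 other Wnt pathway genes listed, 102 were matched and 42 were tested. Between crypt-like and enterocyte-like cells 9 of the 42 were called higher and 1 lower, or 23.8% in all, against 30.2% of all genes tested. Of 13 tested other Wnt targets, 5 were higher, and Cd44, an adhesion receptor, went from 0.759 and 0.381 CPM in enterocyte-like to 80.2 and 247 CPM in crypt-like cells (log2 fold change 7.24 ± 0.81, edgeR, adjusted p = 0.00027). Ephb3, which keeps crypt cells in place, was higher by 5.43 ± 0.64 (adjusted p = 0.00027) and Myc, a growth regulator, by 5.56 ± 0.94 (adjusted p = 0.000877). Ccnd1, a cyclin, was higher by 2.74 ± 0.99 (adjusted p = 0.0471). Both tested genes of the ligand list were higher: Wls, which carries Wnt proteins to the cell surface, by 2.60 ± 0.63 (adjusted p = 0.00683), and Wnt3 by 6.68 ± 1.99 (adjusted p = 0.0242). Wnt3 was at 5.55 and 11.2 CPM in crypt-like cells, in rat 2 the value of 1 UMI. Paneth cells are a known source of Wnt3, and the Paneth list summed to 625 and 922 CPM in crypt-like cells, but its part was not tested. Of 5 tested receptors 1 was called, Fzd6, which was higher by 2.70 ± 0.83 (adjusted p = 0.0228) and of 9 nuclear factors 1, the coactivator Bcl9, by 2.05 ± 0.68 (adjusted p = 0.033). Bcl9 too was at 11.2 CPM in crypt-like cells of rat 2, the value of 1 UMI.

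In the complex that degrades beta-catenin, 1 of 12 tested genes was called, the kinase Gsk3a, which was lower in crypt-like cells by a log2 fold change of -2.70 ± 0.67 (edgeR, adjusted p = 0.00794), and the list's median was -0.12. Gsk3a was at 11.2 CPM in crypt-like cells of rat 2, the value of 1 UMI. In cycling cells 12 of the 42 genes were higher and 2 lower, or 33.3% against 29.9% of all genes. Wnt3 and Spdef, a goblet factor, were among them with 48.2 and 93.7 CPM in rat 2 but 0.397 and 2.38 CPM in rat 1, and the goblet list differed between the rats as given above. In CHE-like cells 3 of the 42 genes, or 7.14% against 7.78% of all genes, were higher than in enterocyte-like cells, among them Prox1 (81.1 and 62.2 CPM, log2 fold change 10.0 ± 0.87, edgeR, adjusted p = 3.63e-05) and the ephrin Efnb1 (111 and 110.1 CPM, 2.29 ± 0.48, adjusted p = 0.00799). The third, Ephb3, was at 0 and 6.70 CPM in CHE-like cells and so rests on rat 2 alone. In tuft-like cells 6 of the 42 genes were higher and 1 was lower than in enterocyte-like cells, or 16.7% against 18.5% of all genes. Prox1 was among the higher ones, at 84.6 and 52.0 CPM (9.51 ± 0.86, adjusted p = 3.69e-05). Cd44 and Ephb3 were also higher in tuft-like cells, by 3.03 ± 0.90 (adjusted p = 0.0299) and 2.79 ± 0.70 (adjusted p = 0.0124). In goblet-like cells 4 of the 42 genes were higher, or 9.52% against 17.6% of all genes, and Spdef was higher by 8.38 ± 1.51 (adjusted p = 0.00141). Tuft-like against CHE-like cells gave 1 call, or 2.38% against 5.64% of all genes, namely Dvl1, which was higher by 2.94 ± 0.82 (adjusted p = 0.0468). Against crypt-like cells, CHE-like cells had higher Id2, Prox1 and Efnb1 and lower Cd44, Myc and Ephb3. These are 6 of the 42 genes, or 14.3%, where 10.8% of all genes were called higher and 10.9% lower.

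The genes with the most similar pattern were sought over the 18 sums of 9 classes and 2 rats, which share their cells' depth and the names of the classes, by Pearson correlation of log2 CPM. For Slc12a2 these were Impdh2 (r = 0.963), Rps12 (0.957) and Nop16 (0.953). For Olfm4 they were Prelp (0.926), Snrpe (0.924) and Dut (0.923), and for Sox9 Trappc6a (0.896), Ddx27 (0.887) and Dpy30 (0.884). For Axin2 they were Topbp1 (0.891), Pcgf6 (0.887) and Ice2 (0.879), and for Lgr5, which had few UMIs, Wdhd1 (0.849), Srd5a2 (0.836) and Prpf4b (0.822). None of the other members was among the 3 nearest genes of these 5.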

How the data were processed

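Single-cell RNA sequencing libraries of jejunal epithelium of 2 rats, 1 library per rat, were analysed from the deposited counts, which are raw numbers of UMIs for each barcode and gene. The authors made these counts with Cell Ranger, per the file headers in version 3.1.0 (rat 1) or 5.0.1 (rat 2), on the rat genome rn6, and no normalization precedes them. The files held 12033 and 8252 barcodes with 99986348 and 66469907 UMIs. Cells outside the limits given above and clusters of leukocyte, erythroid, defensin-rich and poorly epithelial cells were left out, and the rest were clustered and integrated over both rats in Seurat 5.3.0 (2000 variable genes without members or Wnt genes, 20 principal components, resolution 0.5). Thresholds for naming clusters were set after the clusters had been seen, and 3.25% and 2.26% of epithelial cells stayed unnamed. The classes are rebuilt here, so they may differ from those of the study. Scrublet in scanpy 1.11.5 called 116 and 2 cells doublets, and the 0.0897% called in rat 2 means that it did not work there. Doublets were kept, and leaving them out was an alternative.

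Raw counts were summed per rat and class (18 sums of 9 classes) and tested with the quasi-likelihood test of edgeR 4.0.16, two-sided, after TMM scaling and a filter on low counts that left 8622 genes. P-values were adjusted by Benjamini-Hochberg over all genes tested, with calls at 0.05. SEs are the log2 fold change divided by the root of the F statistic, and values per rat use a prior count of 2. Each sum of a rat comes from the same animal, and over 36 pairs of classes the deviations of a rat's sums correlated between 0.0184 and 0.442 (median 0.208), so the rat was used as a block in an alternative. DESeq2 1.42.0 was another. Ratio and share intervals are exact 95% intervals and, like the floor of 3 counts, cover counting error only. The fit was tested on simulated data with log2 changes of 3. For crypt-like against enterocyte-like cells 112 of 182 changed genes were recovered, and 150 of 184 for cycling cells. For tuft-like cells 113 of 181 were recovered, and 106 of 182 for CHE-like cells. Of the genes called, 4.27%, 7.41%, 3.42% and 1.85% were false, in the same order. The simulation drew all classes from a common mean profile and changed fewer genes than were called in the data.

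By rule, all members could be named in every comparison. Of the other Wnt genes, up to 5 called genes per direction with the largest change and the same direction in both rats could be named (10 for crypt-like against enterocyte-like cells), and the genes most like a member were sought for Lgr5, Olfm4, Axin2, Slc12a2 and Sox9. The members and lists were chosen with earlier results of these data known. Comparisons of tuft-like and CHE-like with crypt-like cells and of goblet/Paneth-like with goblet-like cells, and the alternatives that leave out cells with a Mki67 or Top2a UMI or with a Ptprc UMI, were chosen after the data had been seen. Promoter sequences are from RefSeq, build GRCr8. R 4.3.3, Python 3.11.15 and matplotlib 3.10.9 were used.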

Additional observations from a re-analysis of the deposited data

How the results depend on the processing

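With 2 rats and as few as 6 and 9 cells in a class, small differences cannot be detected. No called member turned its direction under an alternative with a test. Some that were not called did, among them Olfm4 between tuft-like and enterocyte-like cells, as given above. The 7 calls between crypt-like and enterocyte-like cells and the 2 between CHE-like and enterocyte-like cells were made under each alternative with a test. Counts of members called that moved by over 1.5 times were the following, and the cause was not tested unless the setting shows it. Without the filter on low counts, which also brings in Lgr5 and Rnf43, 1 member was called between crypt-like and cycling cells instead of 0, 5 instead of 3 between tuft-like and CHE-like cells, and 4 instead of 0 between tuft-like and crypt-like cells. For Slc12a2 between tuft-like and CHE-like cells, edgeR without the filter gave an adjusted p of 2.74e-06 at a log2 fold change of 6.59, against 0.08 at 6.44 in the main fit. Calls made only without the filter are therefore weak evidence on the spread between 2 rats. At a limit of 20% mitochondrial UMIs 1 was called between goblet-like and enterocyte-like cells instead of 0, and 1 between goblet/Paneth-like and goblet-like cells instead of 2. Between tuft-like and enterocyte-like cells 2 were called instead of 4 after merging without integration, and 2 when cells with a Mki67 or Top2a UMI were left out. Between tuft-like and crypt-like cells, 4 were called instead of 0 with the replicate block, 4 when merged, 4 without cells with a Mki67 or Top2a UMI, and 1 with cells of few epithelial transcripts kept. Smaller moves included cycling against enterocyte-like cells, with 4 instead of 6 called by DESeq2 and at a limit of 20% mitochondrial UMIs and 8 without the filter on low counts or with cells of few epithelial transcripts kept. Tuft-like against enterocyte-like cells had 6 instead of 4 without that filter and 3 with those cells kept. The block changed no other call than those given above. Leaving out either rat gives 1 sum per class, so such values have no test.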
